A study of Mus musculus with 12 samples.

Results

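The CD27- fraction of common myeloid progenitors (CMP) was compared with megakaryocyte-erythrocyte progenitors (MEP) from mouse bone marrow. The comparison took the 3 arrays titled as adult CD27- CMP and the 3 titled as adult MEP, 6 of the 12 arrays of the series, over all 45037 probe sets of an Affymetrix Mouse Genome 430_2 GeneChip. A probe set is a group of short probes on the array that together measure 1 transcript. All cells came from female C57BL/6 mice aged 4 to 6 weeks, with no treatment or engineered allele in the labels, and were lineage-negative, CD117+ and Sca-1-. The CD27- CMP were sorted as CD34+ CD16/32- CD27- cells and the MEP as CD34- CD16/32- CD27- cells, so that the sort separated them by surface CD34 alone. The remaining 6 arrays held CD27+ CMP (CD34+ CD16/32- CD27+) and granulocyte-macrophage progenitors (GMP; CD34+ CD16/32+ CD27+), 3 arrays each. RNA came from 80000 cells of each population. The 3 arrays of each are named biological replicates, but no label ties them to separate animals or pools, so every p-value here measures the spread between these arrays and nothing further.

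In the classical scheme of blood formation, CMP give rise to GMP, which make granulocytes and macrophages, and to MEP, which make red cells and platelets. CD34 is a surface sialomucin of early progenitors that is lost as cells enter the erythroid lineage, CD16/32 are Fc receptors of the granulocyte-macrophage branch, and CD27 belongs to the tumour necrosis factor receptors and is lost from cells committed to red cells and platelets. GATA1 and KLF1 drive the erythroid program, and ETS factors such as FLI1 and PU.1 (gene Spi1) act in the megakaryocytic and granulocyte-macrophage programs.

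Values are log2 expression centred on each probe set's own median over the 12 arrays. A value of 0 is therefore the middle of the 12 arrays and says nothing of absolute abundance, so that levels of different genes cannot be compared. A difference of 1 log2 between populations is a 2-fold ratio. Because RNA was measured in bulk, fewer cells expressing a gene and less RNA per cell cannot be told apart.

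CD27- CMP replicate 3 stood apart from the other 5 arrays: 663 probe sets lay more than 1 log2 above all of them, against 18 to 72 on any other array, and 52% of the 663 carried no gene symbol, against 20.3% of all probe sets. CD27- CMP replicate 1 was the highest array for platelet genes such as Treml1 (2.75, against -0.23 and 0.51 in its replicates) and Pf4 (2.99, against 0.64 and 1.24). MEP replicates 1 and 2 read 5.16 and 6.75 on a probe set shared by immunoglobulin kappa genes, whereas MEP replicate 3 and the 3 CD27- CMP arrays read 0.00 to 0.03. Of the mature B cell markers listed, 8 of 11 varied by less than 0.5 log2 over the 12 arrays, and the median of the list was 0.05, 0.03 and 0.00 on the MEP arrays and 0.03, 0.01 and -0.02 on the CD27- CMP arrays. An alpha globin probe set read 3.18, 2.66 and 1.74 on MEP replicates 1, 2 and 3, against 1.89, 1.12 and 0.03 on the CD27- CMP arrays. Over the 15263 probe sets whose range reached 1 log2, the standard deviation of the difference between 2 arrays was 0.53 to 0.83 within CD27- CMP, 0.37 to 0.63 within MEP, and 0.56 to 0.72 between them. Pairs from different populations thus lay within the range of replicate pairs, but the top of that range came from CD27- CMP replicate 3. Without it, CD27- CMP replicates 1 and 2 differed by 0.53 and MEP replicates by 0.37 to 0.63. Pairs between the populations then ran from 0.56 to 0.69, so their top lay beyond the replicate pairs. CD27- CMP arrays differed from CD27+ CMP arrays by 1.56 to 1.69 on the same scale.

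**Figure D1:**
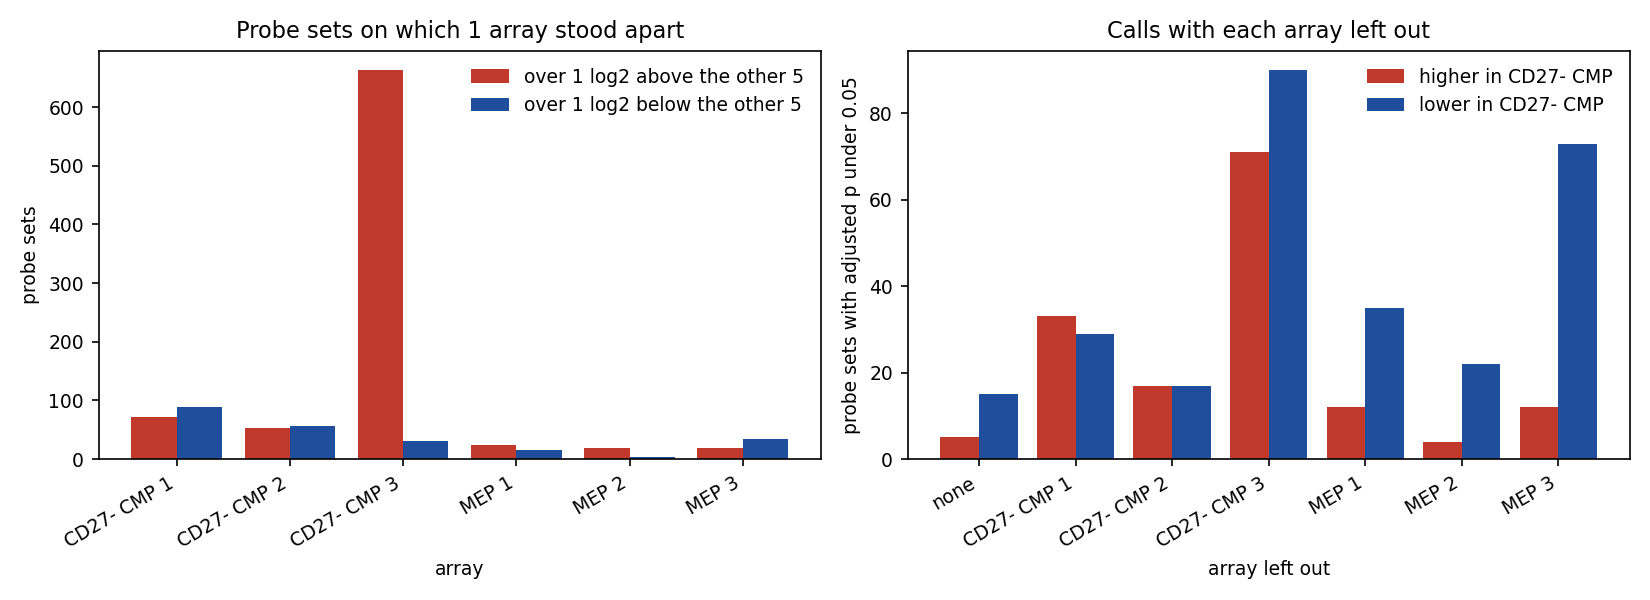
Left, the number of probe sets (vertical axis) on which each of the 6 arrays lay more than 1 log2 above (red) or below (blue) the other 5. Right, the number of probe sets with an adjusted p under 0.05 between the populations, higher (red) or lower (blue) in CD27- CMP. The fit used all arrays of the whole series, and was repeated with each of these 6 arrays left out in turn. CD27- CMP replicate 3 has 663 probe sets above the others, and leaving it out gives 71 higher and 90 lower in place of 5 and 15.

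Few transcripts separated the 2 populations beyond a replicate spread estimated over all 12 arrays, and 0 did so in a fit on their own 6 arrays. On 1 probe set each, the adaptor Lcp2, the myosin Myo1g and the ETS factor Fli1 were higher in CD27- CMP, by 2.14-fold to 3.28-fold. Also on 1 probe set each, the lipid enzymes Scd1 and Mgll and the red cell skeleton gene Add2 were higher in MEP, by 7.18-fold, 2.41-fold and 2.33-fold. Of 45037 probe sets, 20 passed an adjusted p of 0.05, or 0.0444%, in limma with Benjamini-Hochberg adjustment fitted over all 12 arrays. In CD27- CMP 5 probe sets were higher (0.0111%) and 15 were lower (0.0333%), and in all 20 the 3 and 3 arrays did not overlap, as in 1.63% of all probe sets with CD27- CMP higher and 5.56% with CD27- CMP lower. An unadjusted p under 0.05 was reached by 2435 probe sets (5.41%). The differences of the 20 ran from 0.45 to 2.84 log2 in size with a median of 1.10. The same fit called 7210 probe sets (16%) between MEP and CD27+ CMP and 6369 (14.1%) between CD27+ and CD27- CMP.

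The number called depended on single arrays and on which arrays gave the spread. It became 33 higher and 29 lower without CD27- CMP replicate 1, 17 and 17 without CD27- CMP replicate 2, and 71 and 90 without CD27- CMP replicate 3. Without MEP replicates 1, 2 and 3 it became 12 and 35, 4 and 22, and 12 and 73. All 20 kept their direction each time, as they had to, since their 3 and 3 arrays did not overlap. Of the 20, 17 to 20 stayed past the threshold (20 without CD27- CMP replicate 3, and 19 and 17 without MEP replicates 1 and 2, the arrays with the immunoglobulin signal). In a limma fit on the 6 arrays alone, which has 4 residual degrees of freedom in place of 8, 0 probe sets were called. The smallest adjusted p was then 0.17, 1841 probe sets (4.09%) had an unadjusted p under 0.05, and the 20 were among them.

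Among the 5 probe sets called higher in CD27- CMP, Myo1g showed the largest difference. Myo1g (1427892_at) encodes a class I myosin of the plasma membrane of blood cells. It read -2.17, -1.95 and -2.29 on the CD27- CMP arrays and -3.90, -4.19 and -3.46 on the MEP arrays. Every CD27- CMP array lay above every MEP array, with a difference of 1.71 log2 (SE 0.18, n = 3 and 3, limma adjusted p = 0.016). CD27+ CMP averaged 2.10 and GMP 2.06, so both CD27- populations lay far below the CD27+ ones.

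Lcp2 (1418641_at) encodes SLP-76, an adaptor of receptor signalling in T cells, platelets and mast cells. Its values were -1.34, -0.94 and -1.05 in CD27- CMP and -2.33, -2.36 and -2.31 in MEP. The MEP arrays agreed within 0.05 log2 and lay apart from CD27- CMP by 1.23 log2 (SE 0.12, limma adjusted p = 0.011). CD27+ CMP and GMP averaged 1.14 and 1.21.

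Fli1 (1422024_at), which encodes an ETS transcription factor of the megakaryocytic lineage, read -1.23, -1.61 and -1.29 in CD27- CMP and -2.63, -2.48 and -2.31 in MEP. Its difference was 1.10 log2 (SE 0.12, limma adjusted p = 0.018), and the groups did not overlap. Here too CD27+ CMP (1.32) and GMP (1.59) were higher than both. After quantile normalization neither Myo1g (1.53 log2, limma adjusted p = 0.18) nor Fli1 (0.86 log2, adjusted p = 0.11) passed. Without MEP replicate 2 Fli1 did not pass (limma adjusted p = 0.074), and without CD27- CMP replicate 2 Myo1g did not (adjusted p = 0.052).

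The probe sets called for Ehd3 and Myh9 were highest in CD27- CMP of the 4 populations. Ehd3 (1417236_at), which encodes a membrane-shaping ATPase of endosomes, read 0.73, 0.79 and 0.64 in CD27- CMP and lay between -0.12 and 0.06 on the other 9 arrays. The difference from MEP was 0.71 log2 (SE 0.04, limma adjusted p = 0.001). Myh9 (1440708_at), the heavy chain of nonmuscle myosin IIA, read 0.47, 0.64 and 0.64 against 0.02, 0.03 and 0.01 in MEP. Its difference was 0.56 log2 (SE 0.07, limma adjusted p = 0.029), the highest adjusted p among the 20. It passed in only 2 of the 6 fits that left out an array, those without CD27- CMP replicate 1 or 3, and had an adjusted p of 0.052 to 0.10 in the rest. The other 4 Myh9 probe sets averaged -0.51 to -0.28 in CD27- CMP, below CD27+ CMP (0.47 to 0.69), and overlapped MEP.

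**Figure D2:**
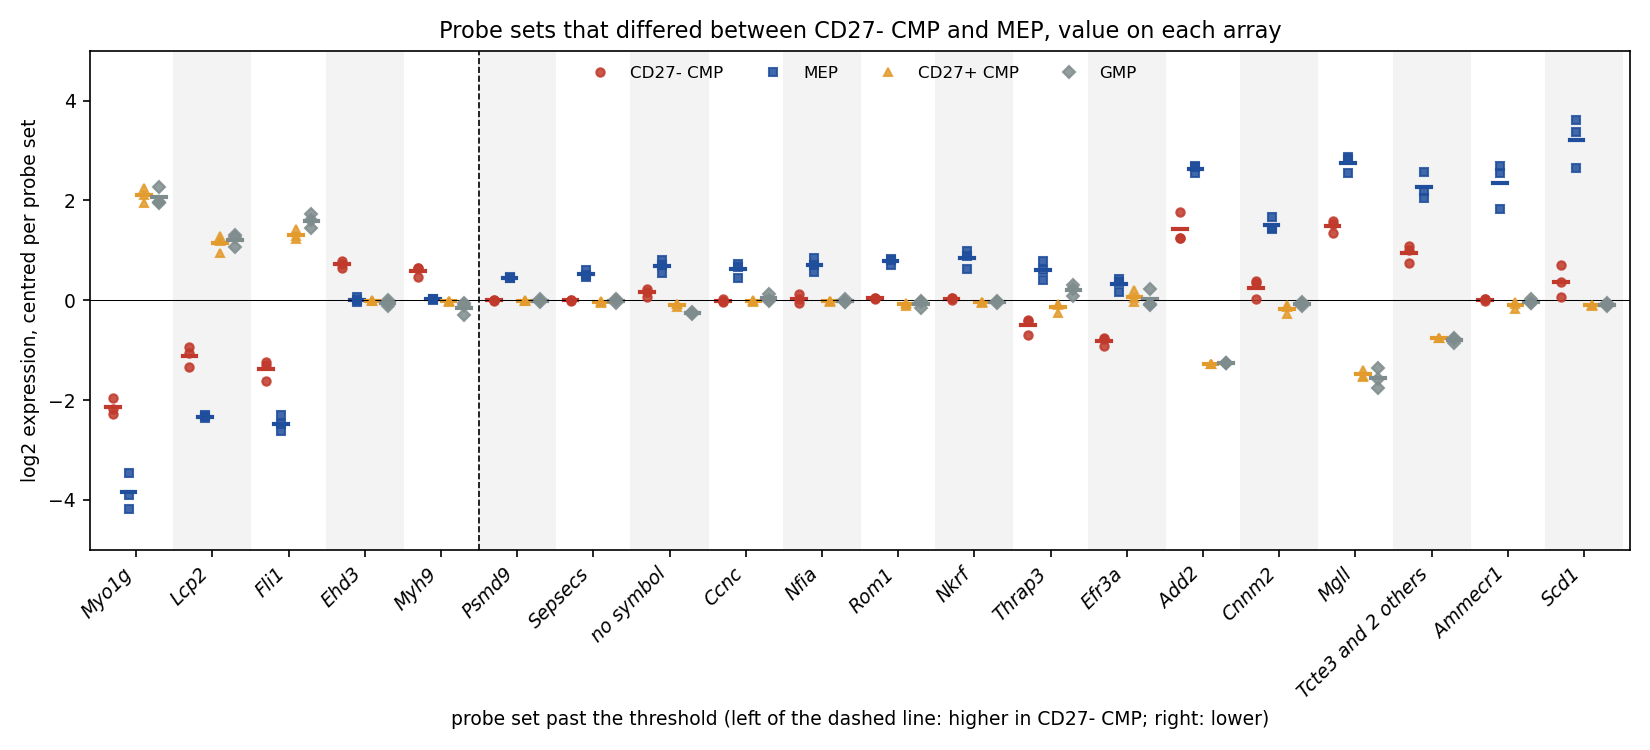
Centred log2 expression (vertical axis) of the 20 probe sets past the threshold (horizontal axis), with 1 point per array, a bar at the mean of 3 arrays, and colours for CD27- CMP, MEP, CD27+ CMP and GMP. Left of the dashed line the 5 probe sets higher in CD27- CMP, and right of it the 15 lower ones. For Myo1g, Lcp2 and Fli1 the CD27- CMP points lie between MEP and the other populations, and for most of the lower probe sets MEP alone stands off 0.

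Promoter windows are printed for some of the called genes. RefSeq sequences on GRCm38.p6 gave windows of 250 bases upstream of the start for Myo1g and Lcp2, higher in CD27- CMP, and for Add2, lower. The Lcp2 window is chr11:34046678-34046927 on the plus strand, the Myo1g window chr11:6520959-6521208 on the minus strand and the Add2 window chr6:86028431-86028680 on the plus strand. Capitals mark matches, on either strand, to a GATA motif (AGATAA or TGATAA), an ETS motif (AGGAAGT or CGGAAGT) or a Kruppel-like motif (CCNCNCCC).
Lcp2: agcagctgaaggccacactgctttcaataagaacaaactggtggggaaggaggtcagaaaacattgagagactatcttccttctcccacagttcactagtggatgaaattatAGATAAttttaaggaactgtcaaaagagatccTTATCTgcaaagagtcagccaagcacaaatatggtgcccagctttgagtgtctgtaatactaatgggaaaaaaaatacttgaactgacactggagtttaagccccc
Myo1g: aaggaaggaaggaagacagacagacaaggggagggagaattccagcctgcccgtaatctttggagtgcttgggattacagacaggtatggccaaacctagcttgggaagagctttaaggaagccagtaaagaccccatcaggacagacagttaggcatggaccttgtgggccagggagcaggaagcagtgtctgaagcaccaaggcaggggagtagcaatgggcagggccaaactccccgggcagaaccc
Add2: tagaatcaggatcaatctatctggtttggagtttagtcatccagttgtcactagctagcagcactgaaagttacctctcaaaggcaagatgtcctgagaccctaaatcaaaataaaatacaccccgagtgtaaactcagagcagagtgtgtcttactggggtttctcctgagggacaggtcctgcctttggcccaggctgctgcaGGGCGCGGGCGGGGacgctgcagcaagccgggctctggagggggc

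Lcp2 holds 2 GATA matches, AGATAA at 138 bases upstream and its reverse form TTATCT at 106 bases. Myo1g holds none of the motifs, and Add2 holds 2 Kruppel-like matches that share bases. Of 18109 windows of genes on the array, 11.8% held the GATA letters, 14.1% the ETS letters and 58.8% the Kruppel-like letters. Among the 4 windows of genes called higher, 1 held a GATA match, 0 an ETS match and 1 a Kruppel-like match. Among the 11 windows of 10 genes called lower, the counts were 1, 1 and 7. The windows of Scd1, Fli1, Efr3a and Sepsecs were not analysed here. A match is a run of letters and shows no binding.

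Scd1 showed the largest difference among the 20 called probe sets. Only 2 probe sets of the array differed by more, both of the immunoglobulin kappa genes (-3.96 and -3.27 log2, with overlapping arrays). Scd1 (1415964_at) encodes stearoyl-CoA desaturase, which makes monounsaturated fatty acids. It read 0.36, 0.70 and 0.06 in CD27- CMP and 3.38, 3.61 and 2.66 in MEP. All MEP arrays lay above all others of the series, with CD27+ CMP averaging -0.10 and GMP -0.09. The difference was -2.84 log2 (SE 0.23, limma adjusted p = 0.0039), and Scd1 passed in all 6 fits that left out an array. Its second probe set read 0.70, 0.16 and -0.01 in CD27- CMP and 1.82, 1.20 and 0.14 in MEP. These overlapped, with a difference of -0.77 log2 (limma adjusted p = 0.79).

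Ammecr1 (1450546_at), a gene named for a human syndrome of X-linked deletion, read 0.03, 0.03 and -0.02 in CD27- CMP and 2.70, 2.54 and 1.82 in MEP. The 9 arrays outside MEP lay between -0.18 and 0.03, and the difference was -2.34 log2 (SE 0.18, limma adjusted p = 0.0039). The second Ammecr1 probe set varied more and did not separate the populations. It averaged 1.05 in CD27- CMP, 1.25 in MEP and -1.91 in CD27+ CMP, and the CD27- CMP and MEP arrays overlapped (-0.20 log2, limma adjusted p = 0.87). Cnnm2 (1451007_at), a membrane protein linked to magnesium transport, read 0.39, 0.03 and 0.34 against 1.67, 1.42 and 1.44. On this probe set it was lower in CD27- CMP by -1.26 log2 (SE 0.10, limma adjusted p = 0.0039). Its other, more variable probe set averaged 0.98 in CD27- CMP, 1.02 in MEP and -1.93 in CD27+ CMP. The CD27- CMP and MEP arrays overlapped there (-0.04 log2, limma adjusted p = 0.95).

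Mgll, Add2 and a probe set shared by Tcte3 and 2 predicted genes were high in both CD27- populations and higher still in MEP. Mgll (1453836_a_at), which encodes the lipase that splits monoglycerides, read 1.58, 1.35 and 1.53 in CD27- CMP and 2.54, 2.88 and 2.84 in MEP, with CD27+ CMP at -1.48 and GMP at -1.56. Its difference was -1.27 log2 (SE 0.12, limma adjusted p = 0.01), with an adjusted p of 0.21 after quantile normalization. Add2 (1431076_at), beta adducin of the red cell membrane skeleton, read 1.77, 1.25 and 1.25 against 2.67, 2.55 and 2.69. It differed by -1.22 log2 (SE 0.12, limma adjusted p = 0.011), and all 6 arrays lay above CD27+ CMP (-1.27) and GMP (-1.25). After quantile normalization its limma adjusted p was 0.36. The shared Tcte3 probe set differed by -1.31 log2, and cannot be assigned to 1 gene.

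The probe sets called for Efr3a and Thrap3 were lowest in CD27- CMP of all 4 populations. Efr3a (1416132_at), which anchors a phosphatidylinositol kinase at the plasma membrane, read -0.76, -0.91 and -0.77 in CD27- CMP and 0.42, 0.36 and 0.17 in MEP. CD27+ CMP and GMP averaged 0.07 and 0.02. Its difference from MEP was -1.13 log2 (SE 0.11, limma adjusted p = 0.01). Thrap3 (1427408_a_at), a factor of RNA splicing, read -0.69, -0.41 and -0.39 against 0.60, 0.79 and 0.40, a difference of -1.09 log2 (SE 0.12, limma adjusted p = 0.016). The most variable Thrap3 probe set was instead highest in CD27- CMP, with a mean of 0.65. It averaged 0.09 in MEP, 0.11 in CD27+ CMP and -0.52 in GMP, and the CD27- CMP and MEP arrays overlapped.

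The smaller lower calls rested on probe sets with small ranges that stayed near 0 outside MEP. Psmd9, a chaperone of proteasome assembly, read 0.01, 0.00 and -0.02 in CD27- CMP and 0.44, 0.44 and 0.47 in MEP. Its difference of -0.45 log2 had the smallest SE of the named genes, 0.02, and the lowest adjusted p, 0.0004. Nkrf, Rom1, Nfia, Ccnc and Sepsecs differed by -0.80, -0.75, -0.67, -0.62 and -0.53 log2. Nfia encodes a nuclear factor I protein that acts in the choice of the erythroid fate, and Ccnc is cyclin C of the Mediator complex. The most variable probe set of Nfia averaged 2.79 in CD27- CMP and 2.93 in MEP, against -3.26 in CD27+ CMP, and its CD27- CMP and MEP arrays overlapped (-0.15 log2, limma adjusted p = 0.86). A further Psmd9 probe set averaged 0.55 and 0.66 against -0.79 in CD27+ CMP (-0.11 log2, adjusted p = 0.88). In 10 of the 15 lower probe sets the CD27- CMP mean lay within 0.5 log2 of both CD27+ CMP and GMP, in 3 it lay at least 0.5 log2 above both, and in 1 at least 0.5 log2 below both. Of the 20 called, 7 had a range under 1 log2 over the 12 arrays.

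Most other probe sets of the called genes did not separate the populations. The 18 genes with 1 symbol had 34 further probe sets on the array, spread over 16 genes, and 0 of them passed in limma, with 6 at an unadjusted p under 0.05. Of the 34, 31 had the sign of the called probe set, but only 3 did so with no overlap between the arrays. For Ehd3 the second probe set did so, at 1.58, 0.45 and 1.25 in CD27- CMP and 0.32, 0.03 and 0.38 in MEP (0.85 log2, limma adjusted p = 0.79). Fli1's second probe set overlapped, with a difference of 0.72 log2 (adjusted p = 0.79), and that of Lcp2 was flat at -0.03 log2 (adjusted p = 0.92). For Thrap3 the further probe sets gave 0.56 and -0.11 log2 (both adjusted p = 0.79). For Add2 all 4 further probe sets were lower, by -0.50 to -0.89 log2 (all adjusted p = 0.79), each with overlapping arrays. Those of Mgll gave -0.58 log2 with no overlap (limma adjusted p = 0.56), and -0.55 and -0.02 log2 with overlap. Those of Efr3a gave -0.06 and -0.27 log2, also with overlap. A fit on the mean of each gene's probe sets called 2 genes higher and 5 lower. Of the 18 genes only Myo1g, Lcp2 and Rom1 were among them, and Myo1g and Rom1 have just 1 probe set each. Fli1, Scd1, Mgll and Add2 did not pass there (limma adjusted p = 0.33, 0.077, 0.22 and 0.61).

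Past the threshold, the next probe sets belonged to Coa5 (-0.60 log2) and the inhibitory receptor Cd300a (0.82 log2), each at an adjusted p of 0.053. The last one inside it was Myh9 at 0.029.

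The genes of the sort antigens did not pass the test. Cd34 read -2.85, -2.88 and -3.93 in CD27- CMP and -3.17, -4.97 and -6.59 in MEP. MEP replicate 1 lay above CD27- CMP replicate 3, so that the arrays overlapped, and the difference of 1.69 log2 had an SE of 0.70 (limma adjusted p = 0.79). It was 0.85 to 2.56 log2 when arrays were left out in turn, lowest without MEP replicate 3 and highest without MEP replicate 1, and did not pass in any of these fits. CD27+ CMP read 4.00 to 4.20 and GMP 2.85 to 3.13, so that Cd34 RNA in the CD34+ CD27- CMP was closer to that of the CD34- MEP than to that of the other CD34+ populations.

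Cd27 differed by 0.30 log2 (SE 0.24, limma adjusted p = 0.79), with values of -2.36, -3.22 and -2.67 in CD27- CMP and -2.94, -3.14 and -3.07 in MEP. CD27+ CMP read 3.92 to 4.19. Fcgr3, which encodes CD16, read -2.63, -2.50 and -2.39 against -1.04, -1.36 and -2.51, and GMP read 6.80 to 7.35. Its difference was -0.87 log2 (SE 0.60, limma adjusted p = 0.79). Kit, the gene of CD117, differed by -0.68 log2 with no overlap (-0.93, -0.01 and -0.06 against 0.43, 0.62 and 0.01; SE 0.28, limma adjusted p = 0.79), and Ptprc, the pan-leukocyte CD45 gene, by 0.17 log2. No probe set was assigned to Ly6a, which encodes Sca-1.

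For gene lists, each gene was read from whichever of its probe sets varied most over the 12 arrays (by standard deviation). Other probe sets of the same gene can differ from it, and are given for some of the genes named. Of 18193 genes, 6 were called (0.033%), 3 in each direction (0.0165%). The 3 and 3 arrays did not overlap in 1.98% of genes, with CD27- CMP higher, and in 6.17%, with CD27- CMP lower. With each array first centred on its own median these shares became 4.02% and 5.01%, so the surplus of lower genes was smaller. The median difference over all genes was -0.02 log2. At an unadjusted p under 0.05 in the same limma fit stood 6.29% of all genes. By list this held for 4 of 29 erythroid, 6 of 21 haem and iron, 6 of 31 megakaryocyte, 3 of 16 granulocyte-monocyte factor, 5 of 28 granule and monocyte, 6 of 35 stem cell, 8 of 29 DNA replication, 2 of 21 mitosis and 2 of 25 G1 genes. In the other lists without a called gene it held for 0 (interferon response) to 6 members (adhesion).

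Granulocyte-macrophage genes were low in both populations and, for several members that did not pass the test, read lowest in MEP. Of 16 granulocyte-monocyte factors and receptors 0 were called, 3 were higher in CD27- CMP with no overlap and 0 lower, and the median was 0.03 log2. Csf1r, the receptor of macrophage colony-stimulating factor, read -2.89, -2.65 and -4.03 against -4.14, -5.61 and -5.04 in MEP (1.74 log2, SE 0.44, limma adjusted p = 0.43). Its other 2 probe sets differed by 0.19 and 0.32 log2 with overlapping arrays, and the mean of the 3 by 0.75 log2. Irf8, a transcription factor of monocytes and dendritic cells, read -3.22, -3.22 and -3.06 against -3.27, -5.22 and -5.89 (1.63 log2, SE 0.55, adjusted p = 0.75), and its second probe set overlapped (0.96 log2). Spi1 read -1.93, -2.89 and -3.05 against -4.69, -3.11 and -3.28 (1.07 log2, adjusted p = 0.79). On the probe sets read, MEP replicates spread by more than 1 log2, and all 6 arrays lay well below CD27+ CMP and GMP. Cebpa, the factor of granulocyte commitment, overlapped (0.67 log2, adjusted p = 0.79), as did Csf2ra (0.02 log2) and Csf3r (-0.02 log2).

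Of 28 granule and monocyte genes 0 were called, 3 were higher with no overlap and 0 lower, and the median was 0.12 log2, or 0.00 after quantile normalization. Tyrobp, the DAP12 adaptor of myeloid receptors, read -2.75, -3.53 and -2.86 in CD27- CMP and -4.09, -6.12 and -6.13 in MEP (2.40 log2, SE 0.51, limma adjusted p = 0.29). Its partner adaptor Fcer1g (1.33 log2) and the oxidase subunit Ncf4 (1.11 log2) also did not overlap. The granule proteins Mpo (0.81 log2), Prtn3 (0.72), Ctsg (0.65) and Elane (-0.39) overlapped, each at an adjusted p of at least 0.79. MEP replicate 1 was the highest MEP array over this list, with a list median of -2.66 against -3.14 and -3.89, and the CD27- CMP arrays stood at -2.16, -2.96 and -2.84. Without MEP replicate 1 the median difference of the list was 0.58 log2, and Tyrobp (3.08 log2, SE 0.29, limma adjusted p = 0.015) and Irf8 (2.39 log2, SE 0.24, adjusted p = 0.021) were called. Without MEP replicate 3 the median was -0.03 log2.

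Among 48 leukocyte signalling and actin genes 2 were called higher (Lcp2 and Myo1g) and 0 lower, 6 were higher and 1 lower with no overlap, and the median was 0.28 log2 with 39 positive. These 2 genes were already known as leading results when the list was drawn up, so they are no independent evidence of its direction. Coro1a, an actin-binding coronin of leukocytes, read -1.92, -2.69 and -1.98 against -3.42, -3.53 and -2.99 (1.12 log2, SE 0.25, limma adjusted p = 0.33). A further Coro1a probe set differed by 1.38 log2 with no overlap and did not pass either (limma adjusted p = 0.067). Plcg2, phospholipase C gamma 2, read -1.12, -1.73 and -2.30 against -2.96, -2.59 and -2.46 (0.95 log2, adjusted p = 0.60). Pik3cd was the member lower with no overlap (-0.45 log2, adjusted p = 0.79). The list median fell to 0.14 log2 after quantile normalization.

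**Figure D3:**
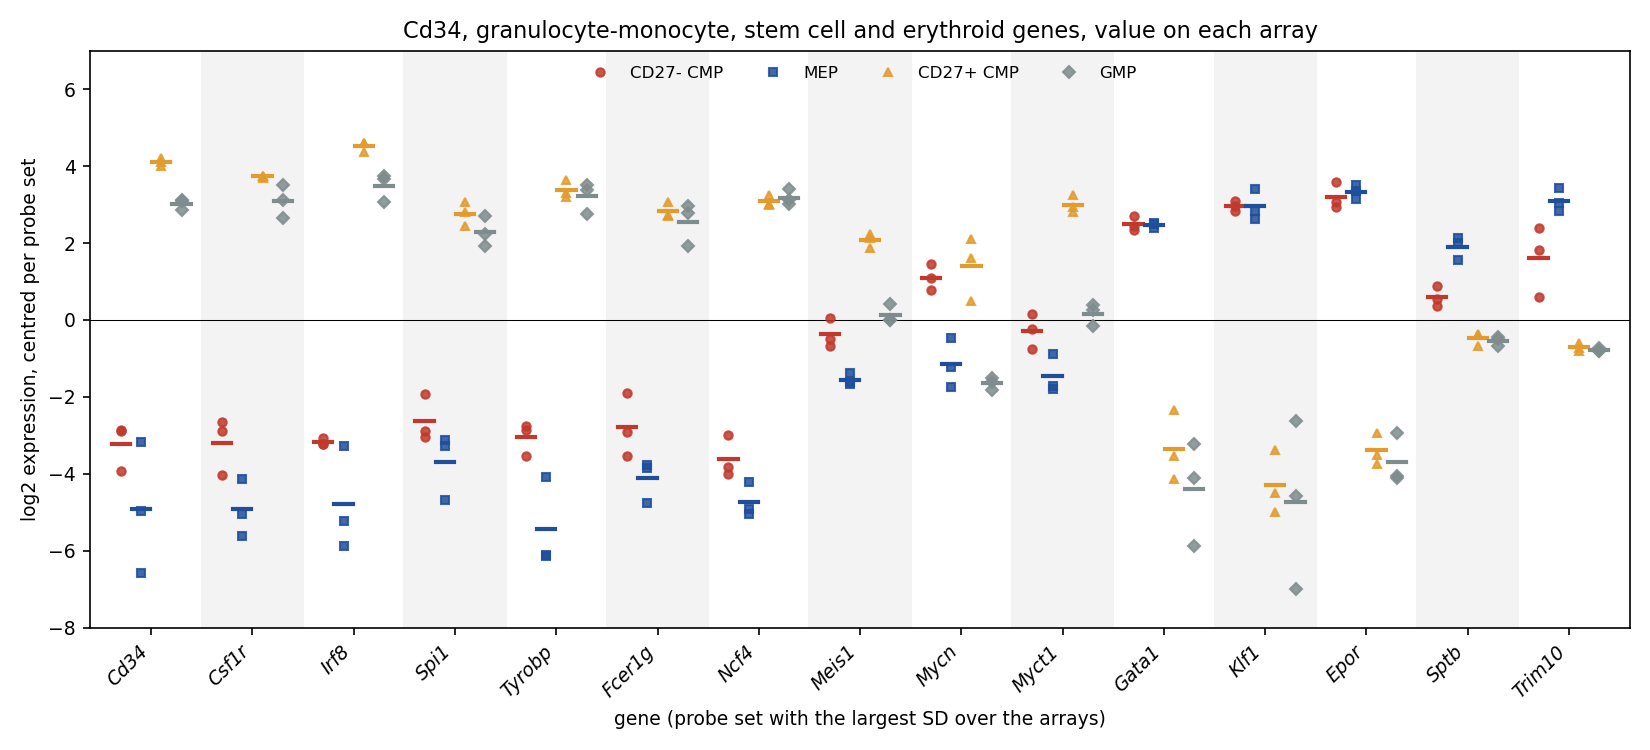
Centred log2 expression (vertical axis) of 15 lineage genes (horizontal axis), with 1 point per array, a bar at the mean of 3 arrays, and colours for the 4 populations. None of these genes passed the test between CD27- CMP and MEP. For Csf1r, Irf8 and Tyrobp the MEP points spread widely below CD27- CMP, whereas Gata1, Klf1 and Epor lie together in both.

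In 35 stem and multipotent progenitor genes 0 were called, 5 were higher and 1 lower with no overlap, and the median was 0.08 log2. Mycn, a Myc family factor, read 0.77, 1.45 and 1.08 in CD27- CMP and -1.22, -1.75 and -0.48 in MEP (2.25 log2, SE 0.43, limma adjusted p = 0.20), whereas its further probe sets gave -0.14 and 0.01 log2. Meis1, a homeobox factor of stem cells and megakaryocytes, read 0.06, -0.50 and -0.67 against -1.62, -1.67 and -1.38 (1.18 log2, SE 0.20, adjusted p = 0.13), and its further probe sets gave -0.03 and 0.20 log2. Without CD27- CMP replicate 3 Meis1 was called, at 1.33 log2 (adjusted p = 0.05 after rounding, from below). Myct1 (1.19 log2), the Tie2 ligand Angpt1 (0.84) and Slamf1 (0.32) were the others with no overlap. Kit was the lower one.

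None of the erythroid genes was called as read here, and 23 of the 29 had a negative difference. With no overlap 0 were higher and 6 lower, and the median was -0.12 log2, which became 0.01 after quantile normalization. The list median was 1.75, 1.69 and 1.83 on the CD27- CMP arrays and 2.62, 2.13 and 2.04 on the MEP arrays, which did not overlap. Gata1 read 2.71, 2.44 and 2.35 in CD27- CMP and 2.39, 2.50 and 2.51 in MEP (0.04 log2, SE 0.63, limma adjusted p = 0.99). This SE, from the fit over all 12 arrays, also holds the spread within CD27+ CMP and GMP. Klf1 (-0.01 log2) and the erythropoietin receptor gene Epor (-0.14 log2) also overlapped. Both populations lay above all CD27+ arrays for these genes. Add2 belongs to this list, but the probe set read for it here was not the one called.

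Some genes of later red cells read lower on every CD27- CMP array than on any MEP array without passing the test. Sptb, beta spectrin of the membrane skeleton, read 0.87, 0.55 and 0.37 against 2.01, 2.13 and 1.56 (-1.30 log2, SE 0.17, limma adjusted p = 0.062), with 0.14 log2 on its second probe set. It was called without CD27- CMP replicate 1 (-1.44 log2, limma adjusted p = 0.03) and without MEP replicate 3 (-1.47 log2, adjusted p = 0.016). Trim10, a gene of terminal erythroid cells, read 2.39, 0.59 and 1.83 against 3.43, 2.83 and 3.05 (-1.50 log2, SE 0.38, adjusted p = 0.43). Hemgn, Cldn13, Rhd and Slc25a38 were the other members with no overlap, at -0.52 to -0.29 log2. MEP replicates 1 and 2, which held the higher globin values, were also the highest for the transferrin receptor Tfrc, at 1.44 and 2.00 against 0.31 in replicate 3 (-1.39 log2, adjusted p = 0.79), and its arrays overlapped.

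Of 21 haem synthesis and iron genes 0 were called, 0 were higher and 8 lower with no overlap, and 19 had a negative difference, with a median of -0.25 log2. Abcb10, a mitochondrial transporter of erythroid cells, read -0.35, -0.27 and -0.19 against 0.92, 0.91 and 0.55 (-1.06 log2, SE 0.21, limma adjusted p = 0.23). Steap3, the ferrireductase of endosomes, read 1.42, 1.10 and 1.06 against 2.09, 2.32 and 2.08 (-0.97 log2, SE 0.16, adjusted p = 0.12). Ferrochelatase (Fech, -0.52 log2), Cpox (-0.46), Abcg2 (-0.38), Slc11a2 (-0.33), Slc25a38 (-0.29) and Ppox (-0.25) were the others. With the arrays centred on their medians 6 of the 21 did not overlap. Alas2, the erythroid enzyme that starts haem synthesis, was flat at -0.02 log2.

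Among 31 megakaryocyte and platelet genes 0 were called, 4 were higher and 1 lower with no overlap, and the median was 0.19 log2. Itga2b, the gene of CD41, read 1.80, 0.25 and -0.01 against -0.08, -0.61 and -0.90 (1.21 log2, SE 0.49, limma adjusted p = 0.79). F13a1 (1.54 log2), F2r (0.70) and Cd9 (0.64) were the others higher with no overlap. Tubb1, the platelet tubulin, was the lower one, at -0.25, -0.66 and -2.51 against 1.31, 0.54 and 0.31 (-1.86 log2, SE 0.54, adjusted p = 0.60). Pf4 (1.32 log2), Treml1 (1.06) and Gp1bb (1.06) had positive differences and overlapping arrays, with CD27- CMP replicate 1 at the top of each. Without that array the median of the list was 0.00 log2.

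In 23 erythro-megakaryocytic transcription factors Fli1 was the 1 called, 4 were higher and 1 lower with no overlap, and the median was 0.06 log2. Beside Fli1 and Meis1 the higher members were the repressors Cbfa2t3 (0.80, 0.65 and 0.40 against -0.18, 0.17 and 0.26; 0.53 log2, limma adjusted p = 0.76) and Etv6 (0.45 log2, adjusted p = 0.35). Bcl11a, the repressor of fetal-type globin, was the lower one (-0.45 log2, adjusted p = 0.79). Gata2 (0.31 log2), Gfi1b (0.04) and Runx1 (-0.53) overlapped. Among 19 ETS factors, Fli1 was the 1 called, Spi1 and Etv6 were also higher with no overlap, and Elf2 was lower (-0.34 log2). Fli1 too was a leading result already known when both lists were drawn up, and is no independent evidence of their direction.

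Lipid synthesis genes held the largest called difference. Of 38 fatty acid and cholesterol synthesis genes Scd1 was called lower, 1 gene was higher and 7 were lower with no overlap, and the median was -0.08 log2. Scd1, a leading result already known when the list was drawn up, is no independent evidence of its direction. The related desaturase Scd2 read -1.01, -0.86 and -1.13 in CD27- CMP and 0.29, 0.25 and -0.37 in MEP (-1.05 log2, SE 0.31, limma adjusted p = 0.59), but CD27+ CMP and GMP reached 0.76 and 0.97, so that its pattern over the 4 populations was not that of Scd1. Further Scd2 probe sets gave -0.24 and -0.23 log2. Acly, which supplies acetyl-CoA, read -0.75, -0.26 and -0.30 against 0.03, 0.05 and 0.52 (-0.64 log2, adjusted p = 0.74), while its other 5 probe sets lay between -0.08 and 0.14 log2. Sqle (-0.47 log2), Msmo1 (-0.45), Sc5d (-0.36) and Fads2 (-0.29) were the others lower, while Srebf2 was higher with no overlap (0.37 log2). Fatty acid synthase, Fasn, overlapped (0.14 log2).

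DNA replication genes read lower in CD27- CMP for many members, by small amounts that did not pass the test. Of 29 measured 0 were called, 0 were higher and 10 lower with no overlap, and the median was -0.17 log2. With centred arrays 7 did not overlap. The ribonucleotide reductase gene Rrm1 (-0.91 log2, limma adjusted p = 0.79), the helicase genes Gins3 (-0.86 log2, adjusted p = 0.59) and Mcm3 (-0.76 log2, adjusted p = 0.55) and the clamp loader gene Rfc3 (-0.66 log2, adjusted p = 0.69) had the largest sizes among the genes that did not overlap. The partner reductase Rrm2 read -0.60, -0.39 and -0.37 against 0.12, 0.07 and 0.09 (-0.55 log2, adjusted p = 0.41). Rrm1 read -1.07, -0.36 and 0.22 against 0.47, 0.26 and 0.80, so the CD27- CMP replicates differed among themselves by more than the groups. Of 21 mitosis genes 3 were lower with no overlap (Ccnb2, Kif20a and Ccna2), of 25 G1 cyclins, kinases and inhibitors 3, and 0 were higher or called in either list.

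**Figure D4:**
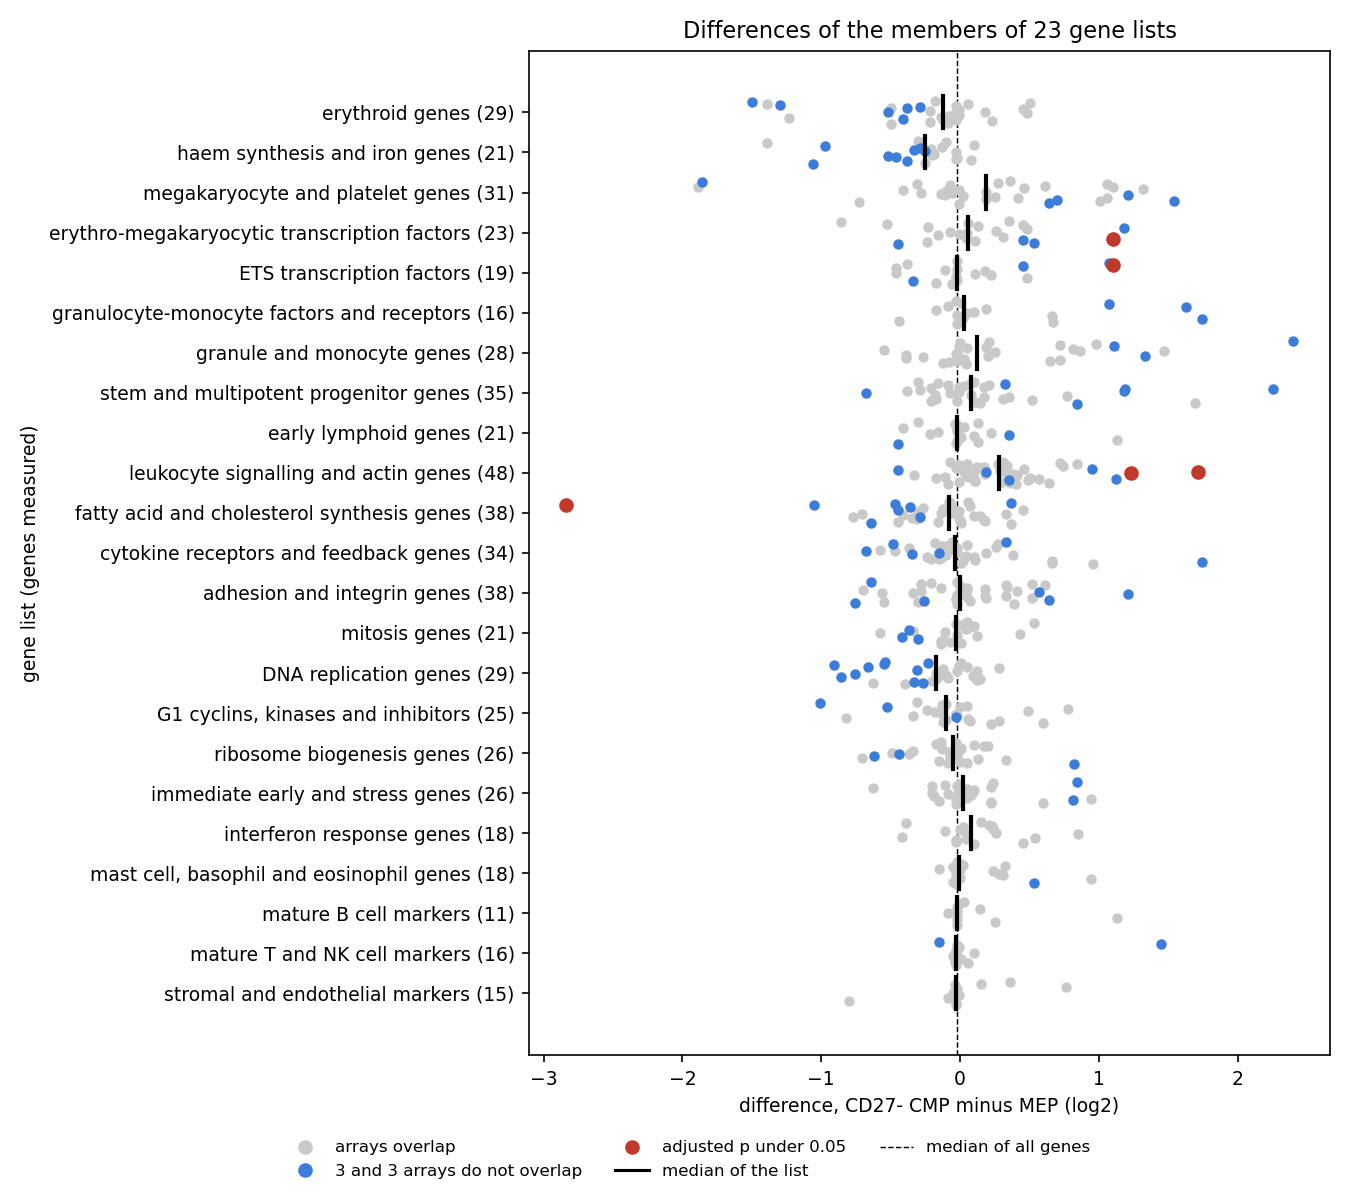
Difference of each list member, CD27- CMP minus MEP in log2 (horizontal axis), for 23 gene lists (vertical axis, with the number of genes measured). Grey points mark genes whose arrays overlap, blue points no overlap and red points an adjusted p under 0.05, black bars are list medians and the dashed line is the median of all genes. Red points mark Fli1 (in 2 lists), Lcp2, Myo1g and Scd1 alone.

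The remaining lists held 0 called genes and had medians from -0.05 to 0.08 log2. Cytokine receptors and feedback genes had 2 higher and 4 lower members with no overlap of 34, adhesion genes 3 and 3 of 38, immediate early and stress genes 2 and 0 of 26, ribosome biogenesis genes 1 and 2 of 26, early lymphoid genes 1 and 1 of 21, and interferon response genes 0 and 0 of 18. Stat5a, which signals below the erythropoietin receptor, was among the lower ones (-0.48 log2, limma adjusted p = 0.69), as was the heat stable antigen gene Cd24a (0.11, 0.09 and 0.35 against 1.18, 0.92 and 0.73; -0.76 log2, adjusted p = 0.27). Markers of other cells gave 1 and 0 of 18 for mast cells, basophils and eosinophils (Alox5), 0 and 0 of 11 for mature B cells, 1 and 1 of 16 for mature T and NK cells (Nkg7 at 1.45 log2 and Prf1 at -0.15) and 0 and 0 of 15 for stroma and endothelium. Of the B, T and stromal markers 8, 12 and 11 varied by less than 0.5 log2 over the 12 arrays.

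Large differences were often not called. Of 324 probe sets that differed by at least 1 log2, 172 did not overlap, 74 of them higher (0.164% of all probe sets) and 98 lower (0.218%) in CD27- CMP, and 11 were called. Cd52, a surface glycoprotein of leukocytes, read -2.56, -3.36 and -2.35 in CD27- CMP and -3.72, -5.18 and -6.69 in MEP (2.44 log2, SE 0.63, limma adjusted p = 0.46). Cavin2, a caveola protein abundant in platelets, read 3.09, 1.41 and 1.14 against 0.09, -0.09 and -0.98 (2.21 log2, SE 0.53, adjusted p = 0.40), and was highest on the CD27- CMP array that also led for platelet genes. Pkm, pyruvate kinase, read -2.23, -3.63 and -3.35 against -4.71, -5.42 and -4.96 (1.96 log2, SE 0.36, adjusted p = 0.17). Btnl9, a butyrophilin-like gene, read -1.80, -0.77 and -0.79 against -2.86, -2.77 and -3.44 (1.91 log2, SE 0.31, adjusted p = 0.12), and was called without CD27- CMP replicate 1 (adjusted p = 0.023). Klk8, Tuba8 and Fxyd5 had differences of 1.96, 1.75 and 1.68 log2 with no overlap. On the other side Pi4k2b, a phosphatidylinositol kinase, read -0.96, -1.42 and -0.32 against 1.61, 0.91 and 0.11 (-1.78 log2, SE 0.51, adjusted p = 0.58).

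Across the 20 called probe sets, 16 had a CD27- CMP mean between those of MEP and CD27+ CMP, 3 of the 5 higher and 13 of the 15 lower. Ehd3, Myh9, Efr3a and Thrap3 were the exceptions. In 10 of the 15 lower probe sets the CD27- CMP mean lay within 0.5 log2 of both CD27+ CMP and GMP, so between does not mean midway. These positions are a description, since CD27- CMP enters both sides of the comparison.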

How the data were processed

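Per the submitters' processing notes, the authors used GCRMA, and its version and the log base were not given in the sources used here. Log2 values of 45037 probe sets on 12 arrays were used as deposited. They are centred, with each probe set's median over the 12 arrays within 5e-07 of 0. The number of arrays limits the precision. Of the probe sets, 34945 carried 1 gene symbol, 932 several and 9160 none in GEO's platform annotation.

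One mean per population was fitted over 12 arrays with limma 3.58.1 (R 4.3.3), with empirical Bayes moderation (prior degrees of freedom 0.992). The test was two-sided, with Benjamini-Hochberg adjustment over all probe sets and a threshold of 0.05. The procedure was tested on simulated data. The simulated arrays had independent errors and none stood apart, so that test does not cover the dependence on single arrays.

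The comparison, the genes and the lists were chosen with earlier results of these data known. Named genes were up to 15 per direction: called genes with 1 symbol and no overlap by size, then genes by size with an unadjusted p under 0.05 and no overlap, plus sort genes and list members. Alternatives covered the arrays fitted, scaling, filters, weights, moderation and arrays left out.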

Additional observations from a re-analysis of the deposited data

How the results depend on the processing

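All 20 called probe sets kept their direction in each alternative fit that tested them, but the number of calls did not hold. The fit on the 6 arrays alone called 0 higher and 0 lower (1841 probe sets at an unadjusted p under 0.05), a range filter of 0.5 log2, which tested 22028 probe sets, called 13 and 12, and the mean of each gene's probe sets 2 and 5. Array weights called 45 and 103, but their estimate stopped before it converged, with a weight near 0 for MEP replicate 2. Weights estimated gene by gene, chosen after seeing the data, called 1608 and 2212, the 20 among them, and Cd34 then passed (2.01 log2, limma adjusted p = 0.021). The cause was not tested. Of the 20, 18 stayed past the threshold with centred arrays, 12 after quantile normalization and 11 under the range filter. Leaving out 1 array gave 4 to 71 higher and 17 to 90 lower.

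Deviations of same-numbered CD27- CMP and MEP arrays correlated at -0.30, 0.00 and -0.10, and those of the other pairs at -0.17 to 0.24. With 3 arrays in each population, these correlations cannot settle whether the same-numbered arrays belong together. With the replicate block 3 were higher and 15 lower, and 12 of the 20 stayed past the threshold, with limma adjusted p of 0.083 for Myo1g, 0.076 for Lcp2, 0.089 for Fli1 and 0.064 for Mgll.

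List medians moved as follows, in log2. With array weights they were -0.01 for megakaryocyte and for stem cell genes, 0.05 for ribosome biogenesis and 0.16 for interferon genes. Gene-by-gene weights gave -0.16 for lipid synthesis, -0.02 for G1, 0.05 for ribosome biogenesis and 0.29 for interferon genes. Quantile normalization gave 0.15 for erythro-megakaryocytic factors, 0.01 for B cell and 0.00 for T and NK markers. The range filter gave 0.13 for mast cell, 0.14 for B cell and 0.26 for stromal markers, over fewer genes. The mean of probe sets gave 0.03 for stem cell and -0.03 for G1 genes. With 1 array left out, medians ran from 0.00 to 0.30 for megakaryocyte genes, 0.00 to 0.18 for erythro-megakaryocytic factors, -0.01 to 0.05 for stem cell genes, -0.18 to -0.04 for lipid synthesis, -0.05 to -0.03 for G1, -0.11 to -0.02 for ribosome biogenesis and 0.02 to 0.23 for interferon genes.

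Absolute signal was lost in the centring, so how far a value lies above background could not be judged.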

Other observations

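The 663 probe sets high on CD27- CMP replicate 3 were led, among named genes, by Marchf7, R3hdm1, Tut4 and Mid1, which exceeded the other 5 arrays by 3.71, 3.69, 3.62 and 3.53 log2. Marchf7 encodes a ubiquitin ligase and Tut4 an enzyme that adds uridines to RNA. Of the 663, 399 also lay more than 1 log2 above all the other 11 arrays. Without that array 161 probe sets were called, the 20 among them.

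MEP replicate 2 was also high for immunoglobulin alpha: an Igha probe set read 3.93 there and -0.37 to -0.18 on the other 5 arrays, and Jchain, the joining chain of secreted antibodies, read 1.02 against -0.08 to 0.06. Ighm read -3.73 to -2.82 in CD27- CMP and -4.27 to -2.45 in MEP on 1 of its probe sets, against 2.45 to 4.43 in CD27+ CMP and GMP. CD27- CMP replicate 2 was the highest array for the interferon-induced GTPase genes Iigp1 and Irgm2. MEP replicate 1 was lowest for the early response factor Egr1, at 0.33 against 2.37 to 3.04 on the other 5 arrays, and highest for the collagen gene Col1a2, at 2.35 against 0.00 to 0.49.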
